A study of Rattus norvegicus with 8 samples.

Results

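Protein serine/threonine kinases were examined in rat nucleus pulposus cells, which come from the soft centre of the intervertebral disc. A gene was included when the deposited table annotated it with the GO term protein serine/threonine kinase activity and with no term for cell division, DNA replication or repair, cilia, autophagy, lysosomes, the actin cytoskeleton or immune and inflammatory responses. Pdk1 and Pdk4 were also left out. The rule gave 37 of 4226 genes, drawn from 63 genes that carry the kinase term. RNA-seq covered 8 libraries in 2 groups. The cells of both groups were depleted of their own SOD1, an enzyme that removes superoxide, by knockdown. They then received wild-type SOD1 by transfection (SOD1-WT, 4 libraries) or SOD1 with the K123R substitution of lysine by arginine (SOD1-K123R, 4 libraries). Lactate was present at 10 mM over 7 days in either case, by the design text. Groups follow the genotype labels and the sample titles, which read Ctrl for SOD1-WT and SOD1-K123R for the other group. The sample descriptions and the columns of the table use Ctrl for SOD1-WT but L for SOD1-K123R. What L stands for is not given, and an effect of lactate cannot be told apart from one of the substitution should L mean lactate. How much Sod1 each group expressed was not analysed here. It is not stated that replicates came from different cultures, so the p-values describe the spread between libraries, which may be technical. Library identifiers run on without a gap inside each group, and handling cannot be told apart from group.

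These enzymes transfer the terminal phosphate of ATP to serine or threonine residues of other proteins. They work in cascades and are sorted by the sequence of the catalytic domain into families such as CMGC (cyclin-dependent, MAP, GSK3 and CDC-like kinases), CAMK (calcium and calmodulin-regulated kinases and their relatives), AGC (relatives of protein kinases A, G and C), STE (upstream kinases of MAP kinase cascades), CK1 (casein kinase 1) and TKL (tyrosine kinase-like, which includes the TGF-beta family receptors). In disc cells the MAP kinase and NF-kB branches are known for raising matrix proteases after cytokine exposure, and the TGF-beta family receptors for controlling matrix synthesis.

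The values are TPM, a relative transcript abundance corrected for transcript length and library size. Over the deposited genes they sum to 187515 to 198656 per library in SOD1-WT and to 235371 to 243393 in SOD1-K123R. The table thus holds part of each transcriptome, and a larger part by TPM in SOD1-K123R. The depth of the libraries is unknown. Of the markers of nucleus pulposus and chondrogenic cells, 9 of 19 were in the table and their summed TPM ran from 8999.5 to 11447 in SOD1-WT and from 14429 to 15281 in SOD1-K123R, mostly Mgp. The defining cartilage markers were low, with a mean of 1.54 and 0.645 TPM for Acan and of 0.400 and 3.19 TPM for Sox9, and Col2a1 was listed at 0 in every SOD1-WT library. Of 13 macrophage and leukocyte markers 2 were in the table, and their sum was 5.44 to 8.04 TPM in SOD1-WT and 23.4 to 30.9 TPM in SOD1-K123R, mostly Cd68. Of 7 endothelial markers 1, Pecam1, was in the table (at most 0.46 TPM). For tendon and annulus 2 of 5 markers summed to 34.6 to 55.2 TPM in SOD1-WT and 17.0 to 21.7 TPM in SOD1-K123R. The part of these differences in the kinase results was not tested.

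Of the 37 kinase genes, 29 reached an average of 1 TPM across libraries and were tested. Of these, 21 rose and 8 fell in SOD1-K123R (limma on log2(TPM + 1), Benjamini-Hochberg adjusted p under 0.05 over all 2890 genes tested). Over all genes tested 95.7% passed, with 44.6% higher and 51.1% lower. Passing the test is thus no feature of the kinases. The median log2 fold change was 1.23 for the kinases and -0.49 for all genes tested. The median of all genes depended on the filter. It was -0.14 with no filter (kinases 1.00) and 0.27 at a mean of at least 5 TPM (kinases 1.28). At least 2-fold changes were seen upward in 19 kinases (26.0% of all genes tested) and downward in 7 (35.8%). After median-of-ratios scaling, which moved the median of all genes by 0.32, these were 21 and 5 kinases, and over all genes 1122 higher and 555 lower in place of 751 and 1036. The values of SOD1-WT and SOD1-K123R libraries did not overlap for any of the 29 (91.4% of all genes tested). The tested genes include 3, Acvr2b, Camkk1 and Map3k9, whose mean was under 1 TPM in SOD1-WT and which reached the filter through SOD1-K123R.

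The rule leaves out 26 genes with the kinase term. Of 24 tested, 11 rose, 12 fell and Ttk did not pass (log2 fold change -0.56, adjusted p = 0.0619), with a median log2 fold change of -0.55. Counted over all 53 tested genes with the kinase term, 32 rose and 20 fell. The balance of directions among kinases therefore differs with the exclusions in the rule. Among those left out is the mitotic kinase Plk1, at 48.0 ± 3.10 and 17.2 ± 2.88 TPM, an example chosen after its values were seen.

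**Figure D1:**
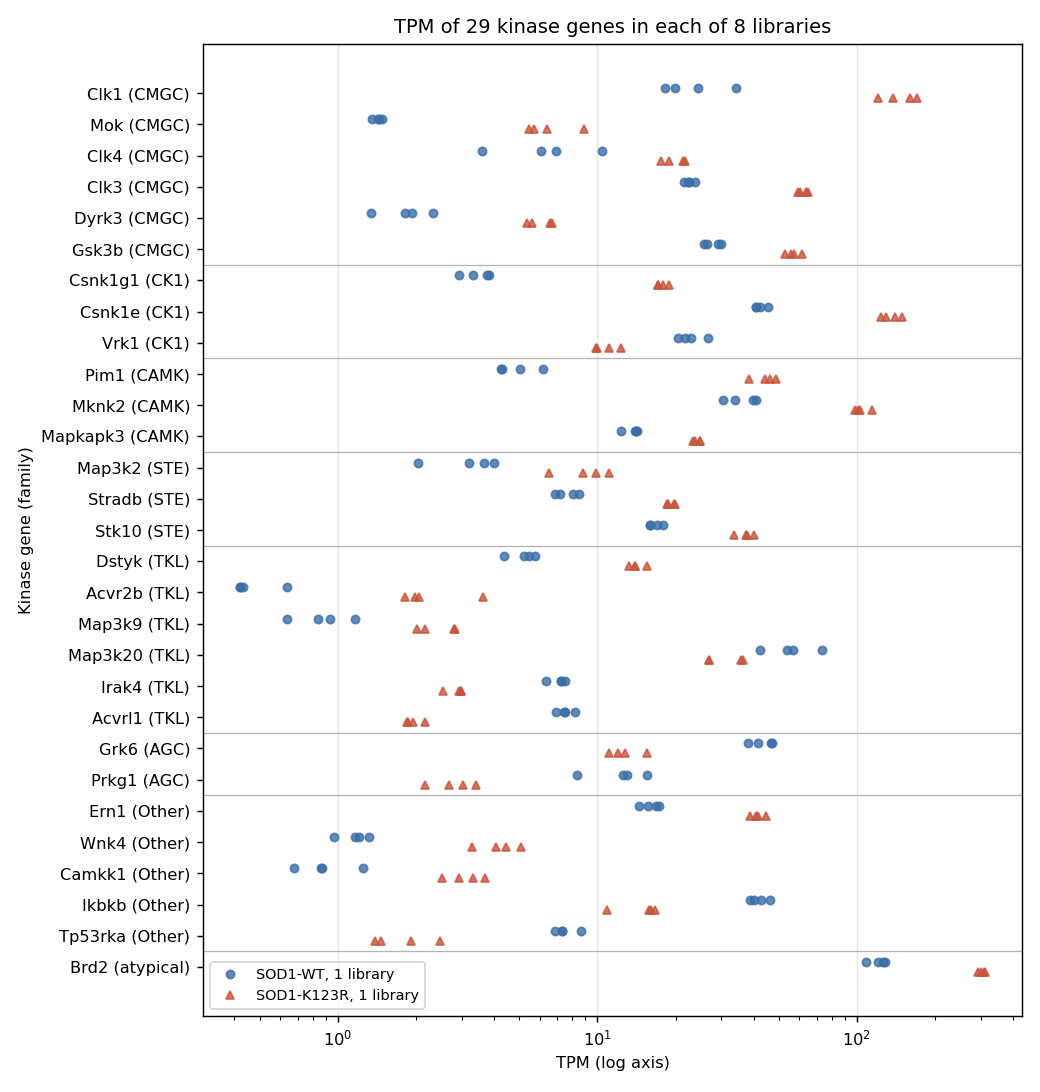
TPM of the 29 tested kinase genes on a log axis, grouped by family. Each circle is a SOD1-WT library and each triangle a SOD1-K123R library (4 each), and the 2 groups are separated in every row, narrowly for Map3k20 (SOD1-WT from 42.4 TPM, SOD1-K123R up to 36.3 TPM).

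In the CMGC family all 6 members were tested and all 6 rose (44.6% of all genes tested were called higher). Clk1 had the largest change of the family. It is 1 of 3 CDC-like kinases here, which phosphorylate the serine- and arginine-rich splicing factors and so control the choice of splice sites. Clk1 read 18.3, 24.35, 34.3 and 19.85 TPM in SOD1-WT replicates 1 to 4 and 161, 171, 137 and 121 TPM in SOD1-K123R replicates 1 to 4. The lowest SOD1-K123R library was thus more than 3-fold above the highest SOD1-WT library, and the log2 fold change was 2.59 (SE 0.17, limma adjusted p = 2.96e-08). Clk4, its closest relative, read 3.59, 6.96, 10.5 and 6.05 TPM in SOD1-WT and 21.4, 21.7, 18.9 and 17.5 TPM in SOD1-K123R (log2 fold change 1.5, SE 0.22). Clk3 was far more even within its groups, at 22.6, 21.5, 22.3 and 23.7 TPM in SOD1-WT and 60.3, 64.9, 59.3 and 63.5 TPM in SOD1-K123R (log2 fold change 1.42, SE 0.08). TPM of the 3 genes together went from 53.5 ± 9.69 to 229 ± 25.2 (mean ± SD over 4 libraries a group, here and below). In SOD1-WT the ranges of Clk1 and Clk3 overlapped (24.2 ± 7.22 and 22.5 ± 0.910 TPM), whereas in SOD1-K123R Clk1 was at 147 ± 22.6 and Clk3 at 62.0 ± 2.64 TPM without overlap. As these are bulk samples, more cells that express a kinase and more RNA per cell cannot be told apart.

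The other members of the family rose too. Mok, a MAP kinase-related enzyme, was even in SOD1-WT (1.44, 1.48, 1.35 and 1.43 TPM) and spread in SOD1-K123R (6.41, 5.47, 5.71 and 8.88 TPM), with a log2 fold change of 1.63 (SE 0.14). Dyrk3, which regulates the dissolution of stress granules, rose from 1.85 ± 0.407 to 6.05 ± 0.658 TPM. Gsk3b, the kinase that phosphorylates glycogen synthase and beta-catenin, rose from 27.8 ± 1.99 to 56.7 ± 3.58 TPM and had the smallest change of the family (log2 fold change 1.00, SE 0.09). The 3 CDC-like kinases share the GO term regulation of RNA splicing. With these 3 counted, 6 tested genes of the whole table carry the term, 5 of them higher and 1 lower.

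Brd2, the most abundant gene of the set in both groups, is a bromodomain protein that binds acetylated histones and is grouped with the atypical kinases. It read 126, 120.0, 109 and 128 TPM in SOD1-WT and 299.9, 312, 309 and 293 TPM in SOD1-K123R, a log2 fold change of 1.33 (SE 0.08). The SOD1-K123R libraries were within a few percent of each other. Promoter windows of the kinase genes were searched for motifs, each window running from 250 bases before to 50 bases after an annotated start (RefSeq, GRCr8). Of the 37 members 31 were matched by symbol. The cAMP response element TGACGTCA, searched on both strands, occurred in windows of 2 of the 31, Brd2 and Clk4, and in 1.83% of 33469 windows of all genes. These windows are printed 5′ to 3′ because they hold that element, with Clk1 beside them as the closest relative of Clk4. Capitals mark every match to the motifs searched, namely TGACGTCA, the AP-1 site TGANTCA, the E-box CACGTG, the CCAAT box and the cell cycle homology region TTTGAA, each on both strands. The genes were chosen for display after their values and matches were seen.
Brd2 (chr20:4729829-4730128, plus strand): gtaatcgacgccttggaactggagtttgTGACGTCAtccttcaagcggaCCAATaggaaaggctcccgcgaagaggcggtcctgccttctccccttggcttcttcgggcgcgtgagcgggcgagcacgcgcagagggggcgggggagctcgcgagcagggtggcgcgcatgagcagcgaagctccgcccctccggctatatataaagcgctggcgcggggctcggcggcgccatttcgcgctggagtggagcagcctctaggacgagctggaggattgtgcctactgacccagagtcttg
Clk4, first annotated start (chr10:36024208-36024507, plus strand): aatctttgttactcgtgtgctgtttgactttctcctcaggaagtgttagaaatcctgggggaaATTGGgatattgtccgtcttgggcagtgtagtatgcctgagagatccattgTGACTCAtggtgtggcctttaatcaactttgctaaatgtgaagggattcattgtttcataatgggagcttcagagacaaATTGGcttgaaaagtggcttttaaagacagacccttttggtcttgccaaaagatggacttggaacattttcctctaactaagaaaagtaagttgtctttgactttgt
Clk4, second annotated start (chr10:36025490-36025789, plus strand): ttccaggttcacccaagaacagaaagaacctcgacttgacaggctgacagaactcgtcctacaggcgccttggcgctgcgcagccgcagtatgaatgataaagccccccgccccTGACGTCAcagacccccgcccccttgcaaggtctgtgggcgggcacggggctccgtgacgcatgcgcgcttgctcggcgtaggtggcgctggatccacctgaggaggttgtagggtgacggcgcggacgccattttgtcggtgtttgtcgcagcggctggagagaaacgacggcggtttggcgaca
Clk1 (chr9:67453131-67453430, minus strand): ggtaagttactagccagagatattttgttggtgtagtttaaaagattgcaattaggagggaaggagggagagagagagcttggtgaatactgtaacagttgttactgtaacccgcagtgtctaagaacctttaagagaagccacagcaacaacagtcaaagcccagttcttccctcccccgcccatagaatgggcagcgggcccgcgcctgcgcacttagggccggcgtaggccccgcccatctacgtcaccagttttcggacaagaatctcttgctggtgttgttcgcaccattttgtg
In the Brd2 window the element began at position -222 relative to the start, followed by a CCAAT box at -201. Clk4 has 2 annotated starts. The window of the second holds the element at -136, and the window of the first holds an AP-1 site and 2 CCAAT boxes in reverse orientation but no such element. Clk1 had no match to any of the 5 motifs. Whether any match bears on the changes was not tested. Over the 31 matched members, AP-1 sites occurred in 4 (7.33% of all windows), E-boxes in 2 (6.42%), CCAAT boxes in 13 (37.5%) and TTTGAA in 2 (18.3%). Members were counted by gene, with a match in any of its windows, and 2 members had more than 1 window. The percentages count single windows, so the 2 measures are not directly comparable. These are matches of letters and do not show binding.

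Genes of the CK1 family moved in both directions, with 2 of 3 higher and 1 lower (44.6% and 51.1% of all genes tested). The casein kinase 1 genes Csnk1e and Csnk1g1 rose, and the related Vrk1 fell. Csnk1e, which phosphorylates the PER proteins of the circadian clock and components of Wnt signalling, read 42.1, 40.8, 40.9 and 45.5 TPM in SOD1-WT and 149, 129, 139.8 and 123.35 TPM in SOD1-K123R (log2 fold change 1.65, SE 0.08). Every SOD1-K123R library lay above 120 TPM and every SOD1-WT library below 50 TPM. Csnk1g1, a membrane-anchored form, read 2.92, 3.76, 3.83 and 3.31 TPM against 17.9, 18.9, 17.1 and 17.1 TPM (log2 fold change 2.08, SE 0.11). Vrk1, a nuclear kinase of histones and of the chromatin-tethering protein BAF, went the other way. It read 20.5, 22.9, 26.7 and 21.85 TPM in SOD1-WT and 9.85, 11.1, 9.96 and 12.3 TPM in SOD1-K123R (log2 fold change -1.02, SE 0.11). After median-of-ratios scaling every fall among the tested kinases was smaller and every rise larger. The log2 fold change of Vrk1 was then -0.60 (limma adjusted p = 0.000217).

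All 3 tested CAMK members rose (44.6% of all genes tested), and 2 others (Camk2a and Nim1k) lay below the filter. Pim1, a constitutively active survival kinase whose gene is induced by cytokines, had the largest log2 fold change of the 29 tested kinases (2.94, SE 0.12, limma adjusted p = 8.37e-10). It read 4.27, 5.05, 4.31 and 6.17 TPM in SOD1-WT and 46.1, 44.4, 48.6 and 38.3 TPM in SOD1-K123R, so that the SOD1-K123R libraries were all more than 6-fold above the highest SOD1-WT library. Its paralogue Pim3, which the rule leaves out, rose from 30.9 ± 5.25 to 90.4 ± 4.82 TPM. Mknk2, which phosphorylates the cap-binding translation factor eIF4E downstream of ERK and p38, read 40.7, 33.9, 30.5 and 39.9 TPM and then 114, 97.85, 102 and 101 TPM (log2 fold change 1.5, SE 0.10). Mapkapk3, a substrate kinase of p38, rose from 13.6 ± 0.846 to 24.2 ± 0.787 TPM (log2 fold change 0.78, SE 0.09; 1.21 after median-of-ratios scaling).

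**Figure D2:**
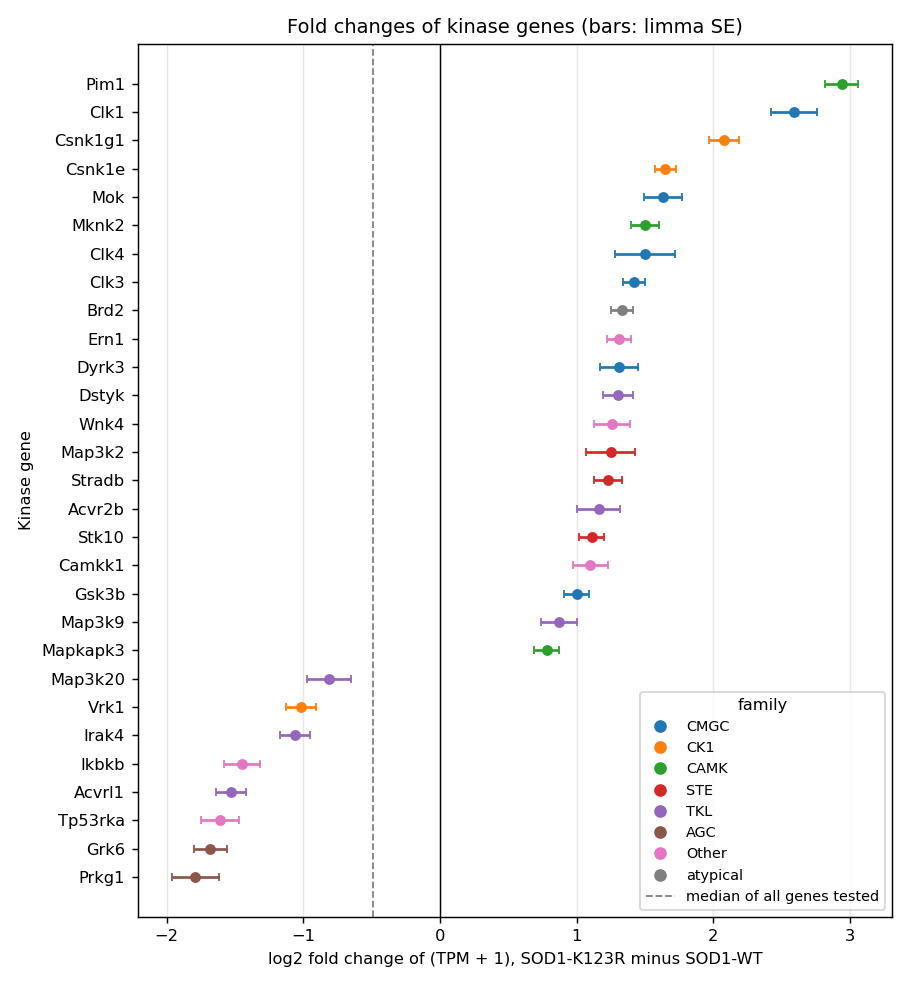
Log2 fold changes of TPM + 1 (SOD1-K123R minus SOD1-WT) of the 29 tested kinase genes, with limma SE as bars and family as colour. They run from -1.79 for Prkg1 to 2.94 for Pim1. The dashed line is the median of all genes tested at the filter of 1 TPM (-0.49), which was 0.27 at a filter of 5 TPM.

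Kinases that sit upstream in MAP kinase cascades were divided between families. The 3 tested STE members rose, a small number beside the 44.6% of all genes that were higher. Map3k2 (MEKK2), which feeds the ERK5 and JNK branches, rose from 3.23 ± 0.854 to 9.06 ± 1.94 TPM, Stradb, a pseudokinase that helps activate the kinase LKB1, from 7.65 ± 0.752 to 19.2 ± 0.697 TPM, and Stk10, which phosphorylates the ezrin family of membrane linkers, from 16.7 ± 0.907 to 37.2 ± 2.61 TPM. Of the mixed-lineage kinases of the TKL family, Map3k9 rose from a low level (0.895 ± 0.220 to 2.46 ± 0.425 TPM). Map3k20, the ZAK kinase that senses stalled ribosomes and activates p38 and JNK, fell. It read 42.4, 53.8, 73.2 and 56.75 TPM in SOD1-WT and 36.3, 35.85, 26.9 and 26.8 TPM in SOD1-K123R. The groups came closest here, and the log2 fold change of -0.81 (SE 0.16, limma adjusted p = 0.000289) became -0.38 after median-of-ratios scaling (adjusted p = 0.00779). Map3k20 was the second most abundant member in SOD1-WT and the tenth in SOD1-K123R.

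With Map3k9 and Map3k20, 3 of the 6 TKL members rose and 3 fell (44.6% and 51.1% of all genes tested). The other 4 are receptors or receptor-linked kinases. Acvrl1 (ALK1), a type I receptor for BMP9 and BMP10, fell. It read 8.23, 7.43, 7.5 and 6.94 TPM in SOD1-WT and 2.17, 1.86, 1.95 and 1.85 TPM in SOD1-K123R (log2 fold change -1.53, SE 0.11). Acvr2b, a type II receptor for activins, read 0.43, 0.42, 0.42 and 0.64 TPM in SOD1-WT and 3.63, 1.81, 1.99 and 2.05 TPM in SOD1-K123R. It rose by 1.16 on the log2(TPM + 1) scale and by 2.06 with a pseudocount of 0.1, since it was near 0 in SOD1-WT. Dstyk, a dual-specificity kinase, rose from 5.20 ± 0.604 to 14.2 ± 0.928 TPM. Irak4, the kinase that starts signalling from Toll-like and interleukin-1 receptors, read 7.23, 7.22, 6.36 and 7.52 TPM and then 2.93, 2.98, 2.55 and 2.99 TPM (log2 fold change -1.06, SE 0.11; -0.70 after median-of-ratios scaling). Ikbkb, which encodes IKK-beta and acts further down the same route to NF-kB, read 42.7, 38.7, 40.3 and 46.2 TPM in SOD1-WT and 16.1, 15.8, 10.9 and 16.7 TPM in SOD1-K123R (log2 fold change -1.45, SE 0.13). Both genes were lower in every SOD1-K123R library than in any SOD1-WT library (the groups did not overlap for 91.4% of all genes tested). Irak2, another kinase of that receptor complex that the rule leaves out, rose (log2 fold change 1.02).

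The AGC family gave 2 tested members, and both fell (51.1% of all genes tested were called lower). Prkg1, the cGMP-dependent kinase that relaxes smooth muscle downstream of nitric oxide, read 8.37, 12.98, 15.5 and 12.5 TPM in SOD1-WT and 3.03, 2.17, 3.4 and 2.68 TPM in SOD1-K123R. Its log2 fold change was -1.79 (SE 0.17). Grk6, which phosphorylates activated G protein-coupled receptors and so ends their signalling, read 46.7, 41.4, 37.97 and 47.25 TPM and then 12.8, 12.0, 11.1 and 15.5 TPM (log2 fold change -1.68, SE 0.12). Which of the pair fell more depended on the setting: with quantile normalization Grk6 was at -1.70 and Prkg1 at -1.52, and without SOD1-WT replicate 3 they were at -1.74 and -1.67.

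Of the remaining kinases, Ern1, Wnk4 and Camkk1 rose and Tp53rka fell. Ern1 (IRE1-alpha), the sensor of the endoplasmic reticulum that splices Xbp1 mRNA, read 14.5, 15.7, 17.2 and 16.9 TPM in SOD1-WT and 44.5, 40.9, 38.9 and 41.4 TPM in SOD1-K123R (log2 fold change 1.31, SE 0.09). Wnk4, a chloride-sensitive kinase of ion cotransporters, rose from 1.17 ± 0.146 to 4.21 ± 0.749 TPM, and Camkk1, which activates calmodulin-dependent kinases, from 0.915 ± 0.240 to 3.12 ± 0.497 TPM. Tp53rka, a subunit of the KEOPS complex that modifies transfer RNA, read 8.67, 7.29, 6.84 and 7.29 TPM and then 1.47, 1.91, 1.39 and 2.48 TPM (log2 fold change -1.61, SE 0.14). The rat has a second copy, Tp53rkb, and the value is uncertain where reads were split between the copies.

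The order of the kinases by TPM changed. In SOD1-WT Brd2 was followed by Map3k20 (56.5 ± 12.7 TPM), Grk6 (43.3 ± 4.43), Csnk1e (42.3 ± 2.21), Ikbkb (42.0 ± 3.26) and Mknk2 (36.3 ± 4.86), and each neighbouring pair from Map3k20 to Mknk2 had overlapping ranges. In SOD1-K123R Brd2 was followed by Clk1 and Csnk1e (135 ± 11.5), whose ranges overlapped, and then by Mknk2 (104 ± 7.25) and Clk3, each apart from the member before it. Summed over the 37 genes, TPM went from 559.7 ± 20.3 to 1144 ± 53.6, or from 0.291% ± 0.0119 to 0.477% ± 0.0270 of the TPM in the table.

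The 8 genes below the filter were low in both groups. Pak6 was at 0.190 ± 0.0796 and 0.885 ± 0.133 TPM and MAST1 at 0.1 ± 0.00816 and 0.358 ± 0.0655 TPM in SOD1-WT and SOD1-K123R. Nim1k was at 1.19 ± 0.388 and 0.417 ± 0.157 TPM and Camk2a at 0.355 ± 0.107 and 0.193 ± 0.0525 TPM. Pak5 and Rps6ka6 were each listed at 0 in 2 SOD1-K123R libraries and stayed at or below 0.30 TPM in every library. Another, a gene without a symbol, is classed as a long noncoding RNA although it carries the kinase term, and it also stayed at or below 0.30 TPM. With no filter on low values, 25 of the 37 genes were higher and 12 lower, among 1725 higher and 2055 lower of all 4226 genes.

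Replicates of SOD1-WT differed in a way that some kinases shared. Clk4 had a coefficient of variation (SD as a percentage of the mean) of 42.1% in SOD1-WT and 10.2% in SOD1-K123R, Clk1 of 29.8% and 15.4%, and Map3k2 of 26.5% and 21.4%. The median over the tested kinases was 11.5% and 10.2%. SOD1-WT replicate 3 was 2.91-fold above replicate 1 for Clk4, 1.88-fold for Clk1, 1.96-fold for Map3k2, 1.85-fold for Prkg1 and 1.73-fold for Map3k20. Other kinases did not share this. The ratio was 0.986 for Clk3, 0.971 for Csnk1e and 0.938 for Mok, and it ran the other way for Camkk1 (0.544), Map3k9 (0.688), Mknk2 (0.751) and Tp53rka (0.789). Replicate 3 was the lowest SOD1-WT library for 9 of the 29 kinases and for 27.5% of all genes tested. In all, 9 of the 29 kinases (31.0%) were lowest in replicate 1 and highest in replicate 3, against 26.5% of all genes tested. Without both replicates, an alternative chosen after the data were seen, the count remained 21 higher and 8 lower, and the log2 fold changes were 1.47 for Clk4, 2.68 for Clk1 and -0.81 for Map3k20.

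**Figure D3:**
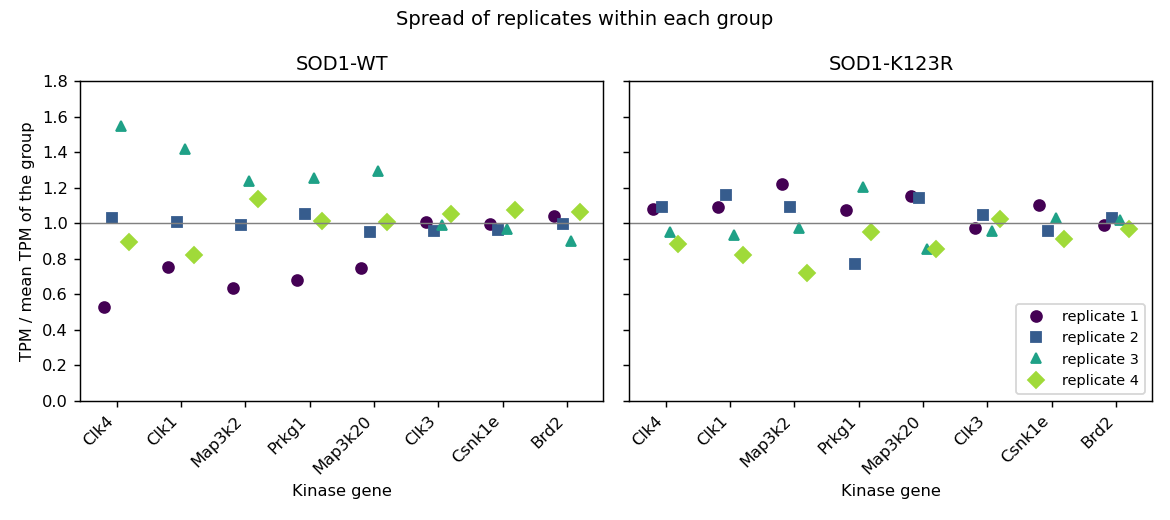
TPM of 8 kinase genes divided by the mean of their group, for each replicate (marker shape and colour) of SOD1-WT (left) and SOD1-K123R (right). In SOD1-WT replicate 1 is lowest and replicate 3 highest for Clk4, Clk1, Map3k2, Prkg1 and Map3k20, while Clk3, Csnk1e and Brd2 stay close to 1.

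Genes that act with these kinases were read from lists of pathway partners. The table held only part of each list, so the counts do not describe whole pathways. Of 28 genes on the list for the JNK and p38 branches, it held 13 entries, with Fosl1 under 2 identifiers. All 13 were tested and rose (44.6% of all genes tested were called higher). Gadd45b, Gadd45a and Atf3 came first by adjusted p (log2 fold changes 3.99, 3.5 and 2.76). Gadd45a and Gadd45b bind the JNK and p38 activator MEKK4, and Atf3 is a stress-induced transcription factor. Mapk8ip3, the scaffold JIP3 of the JNK cascade, rose from 9.74 ± 0.454 to 28.4 ± 3.52 TPM and was singled out for its role after its value was seen. Of 18 phosphatases and feedback inhibitors of MAP kinases on the list 9 were in the table and 8 were tested. Of these, 6 rose, beside 44.6% of all genes tested. Dusp9, 1 of those that rose, averaged 0.375 TPM in SOD1-WT and reached the filter through SOD1-K123R (2.20 TPM). Dusp5, a nuclear phosphatase of ERK, rose from 37.7 ± 1.12 to 114 ± 6.44 TPM and Dusp7, a cytosolic one, from 18.2 ± 1.52 to 67.6 ± 10.2 TPM. Spry1, an inhibitor of receptor signalling to ERK, fell from 74.8 ± 10.1 to 11.9 ± 0.984 TPM, and Dusp2 did not pass (log2 fold change -0.31, adjusted p = 0.0701).

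Regulators of cAMP and protein kinase A, the AGC kinase that cAMP activates, went the other way. Of 42 genes on the list 14 were in the table and 11 were tested, and all 11 fell (51.1% of all genes tested were called lower), with a median log2 fold change of -1.27. Among the 11, Akap5 and Pde3a averaged 0.247 and 0.650 TPM in SOD1-K123R and reached the filter through SOD1-WT, where they were higher. Adcy5, an adenylyl cyclase on the list that lay below the filter, was higher in every SOD1-K123R library (0.180 ± 0.0516 and 0.850 ± 0.285 TPM). Akap12 and Akap1, which anchor protein kinase A at the membrane and at mitochondria, fell from 18.8 ± 1.44 to 6.13 ± 0.786 and from 21.2 ± 1.04 to 8.64 ± 0.997 TPM, and the phosphodiesterase Pde8a from 12.0 ± 0.308 to 3.41 ± 0.808 TPM. The regulatory subunit Prkar2a also fell (log2 fold change -1.25, SE 0.12). The list holds genes of different roles: phosphodiesterases degrade cAMP, and anchoring proteins direct its kinase.

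Of 42 regulators of PI3K, AKT and mTOR on the list 12 were in the table and 11 were tested. Of these, 9 rose, beside 44.6% of all genes tested. Rragd, at 0.143 TPM in SOD1-WT, reached the filter through SOD1-K123R. Ddit4 (REDD1), which inhibits mTORC1, rose from 18.3 ± 2.21 to 121 ± 4.01 TPM, Rragd, a GTPase that recruits mTORC1 to lysosomes, from 0.143 ± 0.0427 to 8.24 ± 0.727 TPM, and Sesn2, a leucine-sensing inhibitor, by a log2 fold change of 1.31. Mlst8, a core subunit of the mTOR complexes, and Pik3r1, a regulatory subunit of PI3K, fell (-1.56 and -0.77). Of 15 genes on the list of pseudokinases and AMPK partners 6 were in the table and tested. Of these, 5 rose, 1 of them Stradb (44.6% of all genes tested). Fnip2 and Fnip1, which bind folliculin and AMPK, rose from 2.90 ± 0.363 to 23.3 ± 2.87 and from 4.81 ± 1.58 to 26.4 ± 7.84 TPM, while the pseudokinase Trib2 fell from 7.06 ± 0.699 to 1.17 ± 0.235 TPM.

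Of 29 cyclins and inhibitors of cyclin-dependent kinases on the list, the table held 18 entries, with Ccnd2 under 2 identifiers. The tested entries were split, with 10 of 16 higher and 6 lower (44.6% and 51.1% of all genes tested). Cdkn1c, 1 of those higher, averaged 0.920 TPM in SOD1-WT and reached the filter through SOD1-K123R (2.84 TPM). Those that fell were Ccna2, Ccnb1, Ccnb2, Ccne1, Ccne2 and Ccnf, cyclins of the G1/S transition, S phase, G2 or mitosis. Those that rose included Ccng2, an atypical cyclin of arrested cells (7.88 ± 0.961 to 57.3 ± 4.60 TPM), and the inhibitors Cdkn1b (p27, 25.3 ± 2.26 to 90.6 ± 9.42 TPM) and Cdkn1a (p21, 236 ± 46.2 to 1046 ± 47.8 TPM). The G1 cyclin Ccnd1, which drives proliferation, rose as well, from 409 ± 45.4 to 856 ± 57.0 TPM. So did the transcription and splicing cyclins Ccnt1, Ccnt2, Ccnl1 and Ccnl2 (log2 fold changes 1.44, 1.81, 1.47 and 1.67). Of 53 genes on the list of serine/threonine phosphatases and their regulators, 8 were in the table and tested. Of the 8, 5 were higher and 3 lower, against 44.6% and 51.1% of all genes tested. The 8 include regulatory subunits, so these counts are not of phosphatases alone. Ppp1r15a and Ppp1r15b, which direct protein phosphatase 1 to eIF2-alpha, rose by 1.63 and 1.62 on the log2 scale, and Ppp4r1, a regulatory subunit of phosphatase 4, fell by 1.36. Of 23 listed partners of TGF-beta family receptors 7 were in the table and 6 were tested. Of these, 4 rose, beside 44.6% of all genes tested. Among them were Smad2 (19.9 ± 2.93 to 59.9 ± 3.4 TPM) and the inhibitory Smad6 (9.87 ± 1.90 to 26.1 ± 1.06 TPM). The other 2 fell, Ltbp1 (log2 fold change -1.25) and Bambi (-0.24, limma adjusted p = 0.0384, with overlapping groups).

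**Figure D4:**
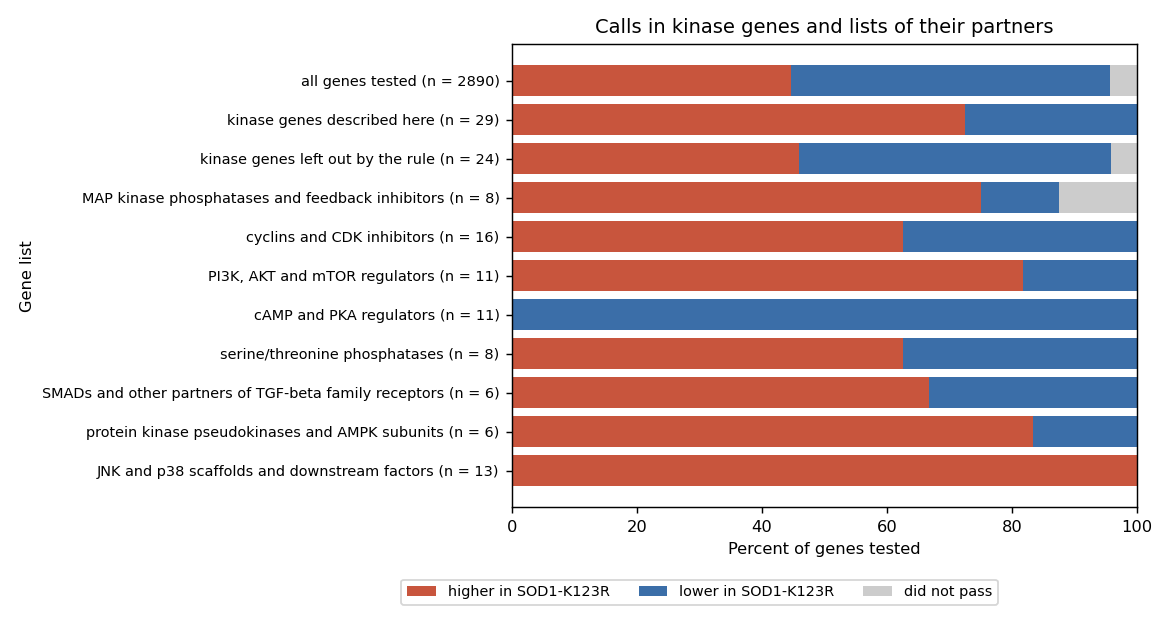
Percent of tested genes called higher, lower or not passing in SOD1-K123R for all genes tested, the 29 kinase genes, the 24 kinase genes left out by the rule and 8 lists of partners, with the number tested in brackets. The tested regulators of cAMP and protein kinase A are all lower and the tested entries of the JNK and p38 list all higher. All genes tested are 44.6% higher and 51.1% lower. Listed genes that were absent from the table or below the filter are not shown.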

How the data were processed

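Total RNA of 8 libraries was sequenced in paired-end mode on an Illumina NovaSeq, per the labels' protocols. The authors deposited 1 table of gene-level TPM with GO annotation, per the file headers, and its name gives RSEM as the source. The sources used here name no aligner, genome build or annotation release, and the submitters' processing notes name DESeq2 without a role. TPM keep no read counts, so depth is unknown and no counting interval was set.

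Kinase genes were found by the exact GO term, with exclusions matched as text. Genes averaging 1 TPM or more across libraries were tested on log2(TPM + 1) with limma 3.58.1 in R 4.3.3 (lmFit, eBayes with trend, no covariate, two-sided, Benjamini-Hochberg over 2890 genes). How the authors chose the deposited rows is not stated, and a choice by group difference would raise the share that passes. The fit was tested on simulated data. The members, lists and tests were chosen with earlier results of these data known. Per-library TPM are printed for up to 10 members in each direction with the largest log2 fold change, provided that the groups do not overlap and the higher one averages 5 TPM or more, and for Acvr2b, which was added after its values were seen. The values of 1 member below the filter are not reported here. Other members are given by family, and lists by up to 3 genes with the smallest adjusted p, with further genes named after their values were seen. Alternatives were other pseudocounts, filters, scalings, moderation, a replicate block, each library left out, and the kinase term without exclusions.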

Additional observations from a re-analysis of the deposited data

Results flagged for a closer look

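Among 74 groups of 4 libraries (37 kinase genes, each in 2 groups), 5 held a library whose gap to its nearest neighbour, as a share of the group's range, was above Dixon's 95% critical value. Chance flags about 1 in 20. The Irak4 value of SOD1-K123R replicate 3 was 2.55 TPM, where the other libraries of that group held 2.93 to 2.99 TPM. Ikbkb was low in the same library, at 10.9 TPM against 15.83 to 16.7 TPM, and its log2 fold change without that library was -1.32. Acvr2b was high in SOD1-WT replicate 4 (0.64 TPM, others 0.42 to 0.43) and in SOD1-K123R replicate 1 (3.63 TPM, others 1.81 to 2.05), and leaving the latter out gave a log2 fold change of 1.00. For Mapkapk3 the low value was 12.37 TPM in SOD1-WT replicate 3, with the others at 13.91 to 14.19 TPM. All 4 genes passed without the library concerned.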

How the results depend on the processing

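All 29 tested kinases kept their direction and passed in all 484 values from 17 alternatives, except that 9 were not tested at a mean of at least 5 TPM. The counts of 21 higher and 8 lower were unchanged by other pseudocounts, scalings, moderation or any left-out library. In the main setting 95.7% of all genes tested passed. Leaving out 1 library gave 17 to 19 kinases at least 2-fold higher and 6 to 7 at least 2-fold lower. Over all genes tested these counts were 708 to 767 and 975 to 1090. At a mean of at least 5 TPM 20 kinases were tested, with 15 higher and 5 lower (4 at least 2-fold lower). Of all 1896 genes tested there, 948 were higher and 897 lower, in place of 1289 and 1476 of 2890. The balance of directions over all genes thus changed with the filter. Without the exclusions 32 genes with the kinase term were higher and 20 lower (13 at least 2-fold lower). After median-of-ratios scaling 555 of all genes were at least 2-fold lower; the cause was not tested. Same-numbered replicates did not pair (correlations of their deviations between -0.35 and 0.054; replicate 4 alone correlated best with its own number), and with a replicate block 21 kinases were higher and 8 lower, and 1282 and 1461 of all genes. Depth is unknown, so the precision of genes near 1 TPM cannot be set.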

Other observations

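Other annotations of the kinases are given as counts, beside 21 higher and 8 lower of all 29 tested. The counts of all genes with a term include these kinases, and no difference between terms was tested. Of 13 tested kinases annotated to the nucleus 11 rose and 2, Tp53rka and Vrk1, fell, where 326 of 611 tested genes with that term rose and 259 fell. Of 15 annotated to the cytoplasm 11 rose and 4 fell, where 237 of 477 tested genes with that term rose and 223 fell. The 5 kinases annotated with signal transduction, Acvrl1, Grk6, Irak4, Prkg1 and Vrk1, all fell, where 25 of 57 genes with the term rose and 28 fell. The 5 tested with intracellular signal transduction (Gsk3b, Mapkapk3, Mknk2, Mok and Wnk4) all rose, as did 31 of 41 genes with that term. The 2 terms are close in meaning and were given to different kinases.

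Within SOD1-K123R, replicate 1 held the highest value for 13 of the 29 kinases (44.8%), against 31.1% of all genes tested, and replicates 3 and 4 held the lowest for 12 (41.4%) and 11 (37.9%), against 40.6% and 29.2% of all genes tested.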
